A study of Mus musculus with 6 samples.

Results

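The genes described here are 10 effectors and regulators of the Hippo pathway, chosen by gene symbol: the transcriptional coactivators Yap1 and Wwtr1 (which encodes TAZ), their DNA-binding partners Tead1, Tead2, Tead3 and Tead4, the inhibitory kinases Lats1 and Lats2, and the angiomotin family members Amotl1 and Amotl2. All 10 are among the 25703 genes of the deposited count table, and all 10 passed the filter on low counts that left 19613 genes for testing. The tissue was the proximal region of the continuously growing incisor of mice, sequenced in bulk. The control genotype, Arid1a fl/fl, has 3 libraries, and the conditional knockout, Gli1-CreER;Arid1a fl/fl, written Arid1a cKO here, also has 3. Every mouse was on a C57BL/6 background and 6 weeks old. Both genotypes carry the floxed Arid1a allele, and the labels give the same tamoxifen treatment for both: 1.5 mg for each 10 g of weight, given on 3 days from 1 month of age. Gli1-CreER is a recombinase made where Gli1 is active, so recombination is limited to Gli1-expressing cells and their progeny, and the bulk tissue also holds cells that keep Arid1a. The control genotype carries no CreER allele by its label, so an effect of the allele and of Arid1a loss cannot be told apart. The labels do not say that the libraries of a genotype came from separate animals, so p-values rest on the spread among these 6 samples, part of which may be technical.

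The Hippo pathway is a kinase cascade that restrains growth. The kinases MST1 and MST2 (genes Stk4 and Stk3), with the scaffold SAV1, activate LATS1 and LATS2 with their cofactors MOB1A and MOB1B, and the LATS kinases phosphorylate YAP and TAZ and keep them out of the nucleus. Unphosphorylated YAP and TAZ bind TEAD factors on DNA and switch on target genes, among them Ccn1, Ccn2, Amotl2 and Lats2, of which the last 2 in turn restrain the pathway's output. In the growing incisor, YAP and TAZ are known for their part in the proliferation of progenitor cells at the proximal end. ARID1A, which belongs to the SWI/SNF complex that remodels chromatin, has been described as an inhibitor of YAP and TAZ proteins. Much of this control acts on proteins, which were not measured, and the comparison asks whether RNA levels of the pathway's genes and targets differed after loss of Arid1a.

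TEAD factors recognise a short core motif, GGAATG on one strand and CATTCC on the other, and the stretches below are shown because they hold a match: in both coactivator genes, in Tead3, and in the target genes Ccn1 and Amotl2. They were picked for the match, so they do not stand for the members as a whole. The 250 bases before each annotated start were taken from RefSeq (GRCm38.p6, the same assembly as mm10), are printed 5′ to 3′ on the gene's strand in lower case, and have each motif match on either strand in capitals.
Yap1, chr9:8004597-8004846, minus strand: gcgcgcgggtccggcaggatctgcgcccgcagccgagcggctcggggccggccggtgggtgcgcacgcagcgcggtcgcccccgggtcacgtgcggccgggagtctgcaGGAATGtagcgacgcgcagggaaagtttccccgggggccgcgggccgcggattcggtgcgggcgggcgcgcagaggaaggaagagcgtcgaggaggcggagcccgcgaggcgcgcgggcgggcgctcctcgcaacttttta
Wwtr1, chr3:57575911-57576160, minus strand: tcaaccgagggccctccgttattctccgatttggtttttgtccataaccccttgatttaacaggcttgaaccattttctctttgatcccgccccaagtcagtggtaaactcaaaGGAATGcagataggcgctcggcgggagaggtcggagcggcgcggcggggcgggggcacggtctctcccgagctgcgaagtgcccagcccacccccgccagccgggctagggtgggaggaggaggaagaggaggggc
Ccn1, chr3:145649986-145650235, minus strand: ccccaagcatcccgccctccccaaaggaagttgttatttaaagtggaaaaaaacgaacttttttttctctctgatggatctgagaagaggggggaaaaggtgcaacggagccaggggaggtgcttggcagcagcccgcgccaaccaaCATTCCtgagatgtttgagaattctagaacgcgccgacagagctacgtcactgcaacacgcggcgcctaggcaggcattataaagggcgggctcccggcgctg
Of the Amotl2 and Tead3 windows, part of which is exon in GENCODE release M21, only the 30 bases around a match are shown. The Tead3 stretch with 2 matches lies within exon of the gene in that release. The other Tead3 stretch lies outside the gene, before its 5′ end.
Amotl2, chr9:102717727-102717756, plus strand: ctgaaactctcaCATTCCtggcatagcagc
Tead3, chr17:28350706-28350735, minus strand: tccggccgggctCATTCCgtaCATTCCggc
Tead3, a second start, chr17:28350970-28350999, minus strand: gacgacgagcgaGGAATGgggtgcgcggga

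The match lies 141 bases before the start of Yap1, 136 before that of Wwtr1, 103 before that of Ccn1 and 65 before that of Amotl2. One Tead3 window holds 2 matches, 123 and 114 bases before its start, and another holds 1, at 182 bases. Of the 8 members with a promoter in the table, 4 (Yap1, Wwtr1, Tead3 and Amotl2) held the motif, against 14.4% of all 27025 genes with a promoter. By window the numbers were 6 of 12 against 12.6% of 32851, but the Wwtr1 windows overlap and share 1 match. No match was found in the windows of Lats1, Lats2, Tead2 and Amotl1, which says only that these letters are not in these 250 bases. Tead1 and Tead4 had no entry. In the target gene list 6 of 15 genes with a promoter held the motif, and among the further pathway genes called upstream genes below 13 of 41 did (31.7%). A match of 6 letters is a description of the sequence and not a binding site.

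All 6 libraries had RNA integrity numbers above 9.0 by the labels, and their counts summed to between 27300932 and 37908478. Arid1a, the targeted gene, was lower in Arid1a cKO, at 136, 139 and 145 CPM (counts scaled to library size after TMM normalization) against 222, 249 and 223 CPM in control replicates 1 to 3 (edgeR log2 fold change -0.72 ± 0.0677 SE, Benjamini-Hochberg adjusted p = 0.00802). Of the marker genes for the tissue, all 10 of dental mesenchyme and all 8 of odontoblasts were present in the table, and none was at 0 in every library. The summed level of the mesenchyme markers was 1081 to 1170 CPM in control and 915 to 969 CPM in Arid1a cKO, with 2 of 10 lower by the test. Schwann cell markers summed to 118 to 223 CPM in control and 242 to 319 CPM in Arid1a cKO, with no overlap and 0 of 8 past the test. Of 8 odontoblast markers 2 fell, and of 8 pericyte and smooth muscle markers 1 rose and 2 fell. The part of these cell types in the members' levels was not tested. Markers of dental epithelium, 17 of 17 present, summed to 1347 to 4822 CPM in control and 1590 to 3315 CPM in Arid1a cKO, with 1 of 17 higher and none at 0. Xist, an RNA made from the inactive X chromosome of females, was at 3894 CPM in control replicate 3, at 2807 CPM in Arid1a cKO replicate 1 and at most at 4.39 CPM in the other 4 libraries, so each genotype holds 1 library that differs in sex-linked RNA, and these are also the highest in epithelium markers. In bulk tissue fewer cells of a type and less RNA per cell cannot be told apart. Across all 19613 genes tested, 3.96% passed an adjusted p of 0.05 (1.5% higher and 2.46% lower in Arid1a cKO), and in 29.1% the 3 control and 3 Arid1a cKO values did not overlap.

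None of the 10 Hippo genes passed the threshold. The largest member difference was about 1.18-fold. In simulated counts the fit recovered only 2% of genes changed 1.25-fold. Those genes were drawn at random from all genes tested, at any level, so 2% is not the recovery for the members. The lack of calls does not by itself exclude differences this small. The smallest adjusted p was 0.0783 (Lats1) in edgeR's quasi-likelihood test, 4 of 10 had an unadjusted p under 0.05 against 22% of all genes tested, and DESeq2, which called 10.5% of the genes it tested, called 1 of 10, Lats1 (adjusted p = 0.0299). Groups did not overlap in 5 of 10 members: Wwtr1, Lats1, Lats2 and Amotl1 were lower in all Arid1a cKO libraries and Tead3 was higher in all of them. Over all genes tested 15.3% were lower and 13.8% higher with no overlap. The log2 fold changes ran from -0.24 (Lats2) to 0.24 (Tead3), 4 of 10 above 0 against 50.8% of all genes, with a median of -0.07, beside a median of 0.00426 over all genes tested. With the Xist level as a covariate 0 of 10 passed as well, against 6.02% of all genes, and the values ran from -0.24 to 0.24.

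**Figure D1:**
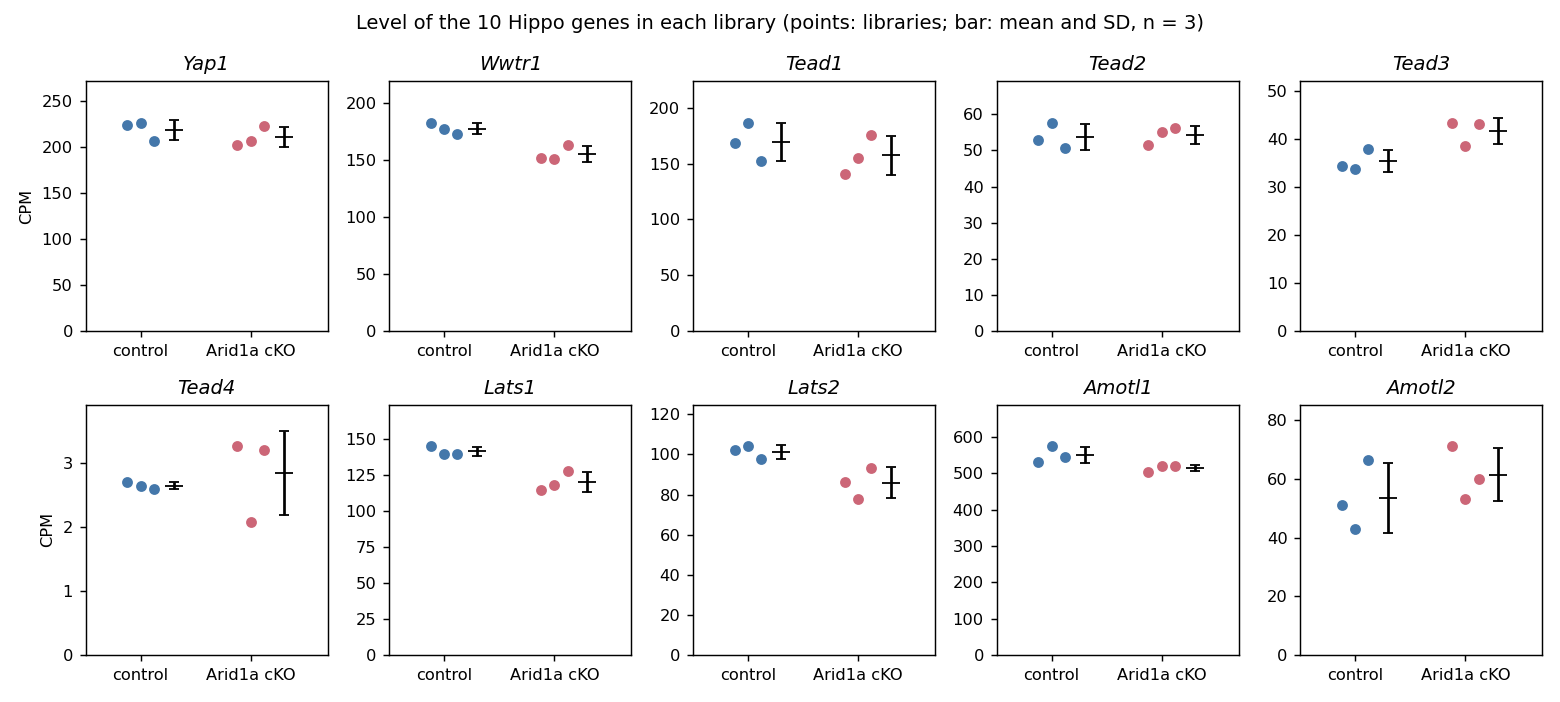
Level of each of the 10 Hippo genes in CPM (vertical axes, from 0) in 3 control and 3 Arid1a cKO libraries. Points are libraries and the bar is the mean with its SD. In Lats1 the Arid1a cKO libraries reach 128 CPM at most and the control libraries start at 139 CPM, whereas the Yap1 points of both groups lie between 203 and 227 CPM.

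The coactivators differed little between genotypes. Yap1 (chromosome 9, 7931999 to 8004596, mm10, minus strand, protein coding) stood at 224, 227 and 207 CPM in control replicates 1 to 3 and at 203, 207 and 223 CPM in Arid1a cKO replicates 1 to 3. The groups overlap almost fully, and the means were 219 ± 11 and 211 ± 10.8 CPM (SD, n = 3), a log2 difference of -0.05 ± 0.0687 (SE) (edgeR adjusted p = 0.703). The 95% interval of the Yap1 difference ran from 0.863-fold to 1.08-fold, so a change of Yap1 RNA as large as that of Arid1a RNA lies outside it. On the opposite strand Gm20416 overlaps 1.25% of the exon bases of Yap1, and Cd37 overlaps 0.272% of those of Tead2, and reads there cannot be told apart without strand. Wwtr1 (chromosome 3, 57455649 to 57575910, minus strand) stood at 183, 177 and 173 CPM in control and at 152, 151 and 164 CPM in Arid1a cKO. Each Arid1a cKO library lay below each control library, by a small margin. The means were 178 ± 4.77 and 155 ± 7.08 CPM (SD, n = 3), a log2 difference of -0.19 ± 0.0594 (SE) (edgeR adjusted p = 0.112; interval 0.795-fold to 0.962-fold).

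Per kilobase of merged exons, Wwtr1 RNA was more abundant than Yap1 RNA in all 6 libraries. In CPM the order was the reverse, at means of 219 (Yap1) and 178 (Wwtr1) in control and 211 and 155 in Arid1a cKO. The per-kilobase order rests on merged exon lengths of 9.257 and 4.779 kilobases, which span all annotated transcripts. Which transcripts were expressed was not tested. The ratio of Yap1 to Wwtr1 per kilobase was 0.636 in control and 0.701 in Arid1a cKO (geometric means). Its log2 value was -0.66, -0.60 and -0.70 in control replicates 1 to 3 and -0.53, -0.50 and -0.50 in Arid1a cKO replicates 1 to 3. The groups did not overlap, and the exact two-sided permutation p was 0.1, the smallest that 3 against 3 can give. Adjusted over the 4 ratios and shares computed here it was 0.4.

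Of the TEAD genes, which encode the DNA-binding partners of YAP and TAZ, Tead3 showed the largest difference. Tead3 (chromosome 17, 28331671 to 28350817, minus strand) stood at 34.4, 33.9 and 37.98 CPM in control and at 43.4, 38.5 and 43.2 CPM in Arid1a cKO. The groups were separate, with control replicate 3 and Arid1a cKO replicate 2 close to each other. The means were 35.4 ± 2.24 and 41.7 ± 2.78 CPM (SD, n = 3), a log2 difference of 0.24 ± 0.0771 (SE) (edgeR adjusted p = 0.125). Within each genotype the library highest in Tead3 was also the one highest in dental epithelium markers, whose mean log2 CPM was 4.51, 4.77 and 5.77 in control replicates 1 to 3 and 5.84, 4.82 and 5.34 in Arid1a cKO replicates 1 to 3. With this score as a covariate the Tead3 log2 fold change was 0.19 (edgeR adjusted p = 0.177). Control replicate 3 and Arid1a cKO replicate 1 are also the libraries high in Xist, and which of these goes with Tead3 was not tested.

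Tead1 (chromosome 7, 112679318 to 112906807, plus strand) spread widely within each genotype, with 169, 187 and 153 CPM in control and 140.5, 155 and 176 CPM in Arid1a cKO (log2 fold change -0.11 ± 0.103 SE, adjusted p by edgeR 0.589). Tead2 (chromosome 7, 45215753 to 45233644, plus strand) stood at 52.8, 57.6 and 50.8 CPM in control and at 51.4, 55.1 and 56.2 CPM in Arid1a cKO. The Tead2 groups overlap fully, and the interval of the difference ran from 0.902-fold to 1.13-fold (edgeR adjusted p = 0.94). Tead4 (chromosome 6, 128224288 to 128300823, minus strand) was the lowest member at 2.59 to 2.71 CPM in control and 2.08 to 3.26 CPM in Arid1a cKO. The Arid1a cKO libraries of Tead4 spread more than the controls, and the interval was wide, 0.763-fold to 1.51-fold (edgeR adjusted p = 0.821). Of the summed TEAD level per kilobase, Tead1 held 41.9 ± 1.9% in control and 38.7 ± 2.09% in Arid1a cKO (SD, n = 3; exact two-sided permutation p = 0.2, adjusted 0.4). Tead2 held 37.8% and 37.9%, Tead3 17.8% and 20.8%, and Tead4 2.48% and 2.65%.

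The LATS kinase genes, whose products inhibit YAP and TAZ, had the largest differences downward, and both by nearly the same amount. Lats1 (chromosome 10, 7681214 to 7716460, plus strand) stood at 145, 139.7 and 139 CPM in control and at 115, 118 and 128 CPM in Arid1a cKO. All Arid1a cKO libraries lay below all control libraries, at means of 120.2 ± 6.94 against 141 ± 3.04 CPM (SD, n = 3), a log2 difference of -0.23 ± 0.0613 (SE) (edgeR adjusted p = 0.0783; interval 0.771-fold to 0.939-fold). Lats2 (chromosome 14, 57689662 to 57758388, minus strand) stood at 102, 104 and 97.6 CPM in control and at 86.4, 77.9 and 93.3 CPM in Arid1a cKO. Its groups were separate too, at means of 85.9 ± 7.7 against 101 ± 3.35 CPM (SD, n = 3), a log2 difference of -0.24 ± 0.075 (SE) (edgeR adjusted p = 0.116; interval 0.751-fold to 0.956-fold). The log2 ratio of Lats1 to Lats2 per kilobase was 0.41 ± 0.0473 in control and 0.42 ± 0.1 in Arid1a cKO (SD, n = 3; exact two-sided permutation p = 1). In GENCODE release M21 the gene Gm49361, which is not in the count table, shares 42.4% of the exon bases of Lats2 on the same strand. How reads there were assigned is not known, so Lats2 counts are uncertain where reads could belong to Gm49361.

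The angiomotin family genes encode junction proteins that bind YAP and TAZ and hold them in the cytoplasm. Amotl1 (chromosome 9, 14541966 to 14645056, minus strand) stood at 531, 574 and 544 CPM in control and at 505, 519 and 520.0 CPM in Arid1a cKO. The groups did not overlap, but the gap was small beside the spread of the controls (log2 fold change -0.10 ± 0.0711 SE, adjusted p by edgeR 0.472). Amotl2 (chromosome 9, 102716672 to 102733418, plus strand), which is also a YAP and TAZ target gene, stood at 51.2, 43.0 and 66.4 CPM in control and at 71.1, 53.2 and 59.9 CPM in Arid1a cKO. This gene varied 1.54-fold among the controls alone, and the genotypes overlapped (log2 fold change 0.20 ± 0.176 SE, adjusted p by edgeR 0.559; interval 0.857-fold to 1.53-fold). With the epithelium score as a covariate its log2 fold change was 0.08 (adjusted p = 0.729). The log2 ratio of Amotl1 to Amotl2 per kilobase was 2.70 ± 0.351 in control and 2.40 ± 0.233 in Arid1a cKO (SD, n = 3; exact two-sided permutation p = 0.3, adjusted 0.4).

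**Figure D2:**
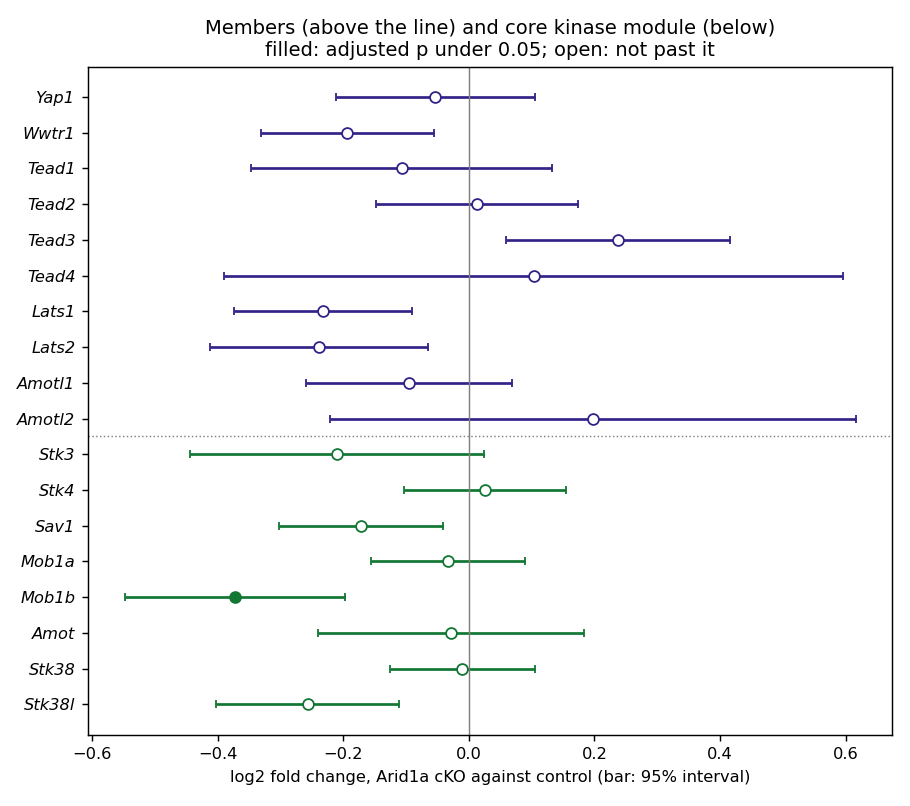
Log2 fold change of Arid1a cKO against control (horizontal axis) with its 95% interval from the edgeR fit, for the 10 members and the 8 genes of the core kinase module. Filled points passed an adjusted p of 0.05, which of these 18 genes only Mob1b did, at -0.37.

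Scaling to length allows a rough comparison of levels between genes, which depends on merged exons of all annotated transcripts and not on the transcripts expressed. In CPM per kilobase of merged exons, averaged over all 6 libraries, Amotl1 was highest at 52.9 ± 2.42 (SD, n = 6), followed by Wwtr1 at 34.9 ± 2.8, Yap1 at 23.2 ± 1.15 and Lats1 at 17.9 ± 1.71. The ranges of these 4 genes did not overlap with that of the next gene in the order. Lats2 (13.4 ± 1.43), Tead1 (12.03 ± 1.25), Tead2 (11.3 ± 0.575) and Amotl2 (9.14 ± 1.65) formed a run in which each gene's range overlapped with that of its neighbour. Tead3 at 5.74 ± 0.616 and Tead4 at 0.764 ± 0.121 lay below, each apart from the gene above it. Among the paralogues the more abundant RNA on this scale was Wwtr1 over Yap1 and Amotl1 over Amotl2 in each of the 6 libraries. Without the scaling, mean CPM was higher for Yap1 than for Wwtr1 in both genotypes. Lats1 also lay above Lats2 in each, but the place of Lats2 in the order is uncertain because of the exon bases it shares with Gm49361.

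**Figure D3:**
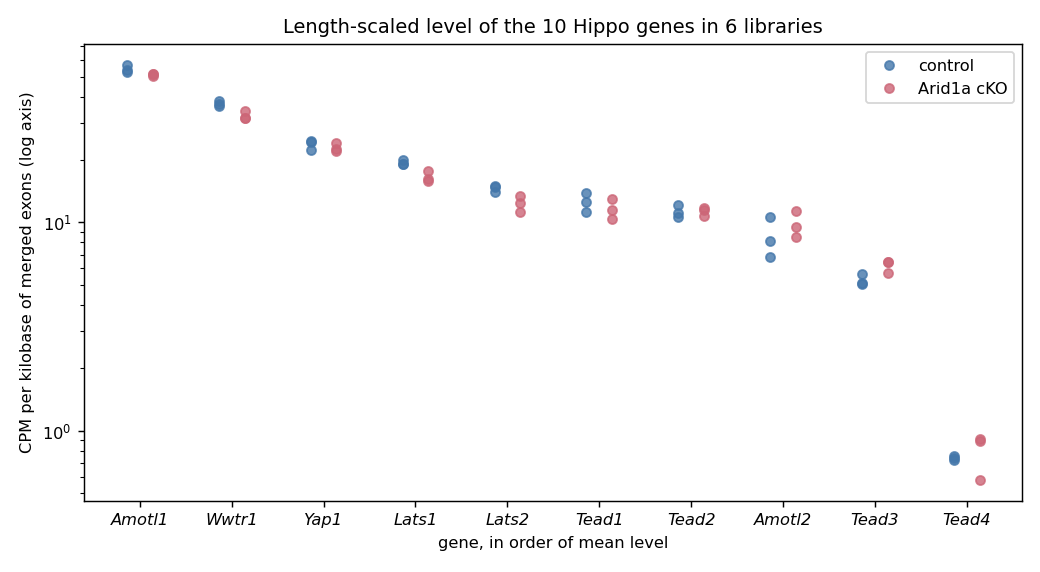
Length-scaled level (CPM per kilobase of merged exons, log axis) of the 10 Hippo genes in 6 libraries, in order of their mean. Points are libraries in the colour of their genotype. Levels run from 52.9 for Amotl1 to 0.764 for Tead4, and the order of the means separates genes far more than genotypes do.

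Differences between genotypes moved with exon length over all genes, and the members lie at the middle to long end. Among genes of at least 20 CPM the median log2 fold change was 0.06 in the quintile with the shortest merged exons and -0.10 in the quintile with the longest, with medians of 0.01, -0.03 and -0.05 in between. The share of genes lower in Arid1a cKO with no overlap rose over the same quintiles from 10.7% to 32.5%. Of the 9 members above 20 CPM, 3 (Yap1, Tead1 and Amotl1) belong to the longest quintile and 4 (Tead3, Lats1, Lats2 and Amotl2) to the next, in which 26.5% of genes were lower with no overlap. After the length trend of each library was removed, an alternative chosen after seeing the data, 0 of 10 members passed, against 3.85% of all genes, and their median log2 fold change was 0.01. Yap1 turned to 0.03 and Tead1 to 0.00129, and Amotl1 was at -0.0076. Lats1 (-0.17, edgeR adjusted p = 0.108), Lats2 (-0.18, 0.184), Wwtr1 (-0.17, 0.119) and Tead3 (0.29, 0.0859) kept their direction.

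**Figure D4:**
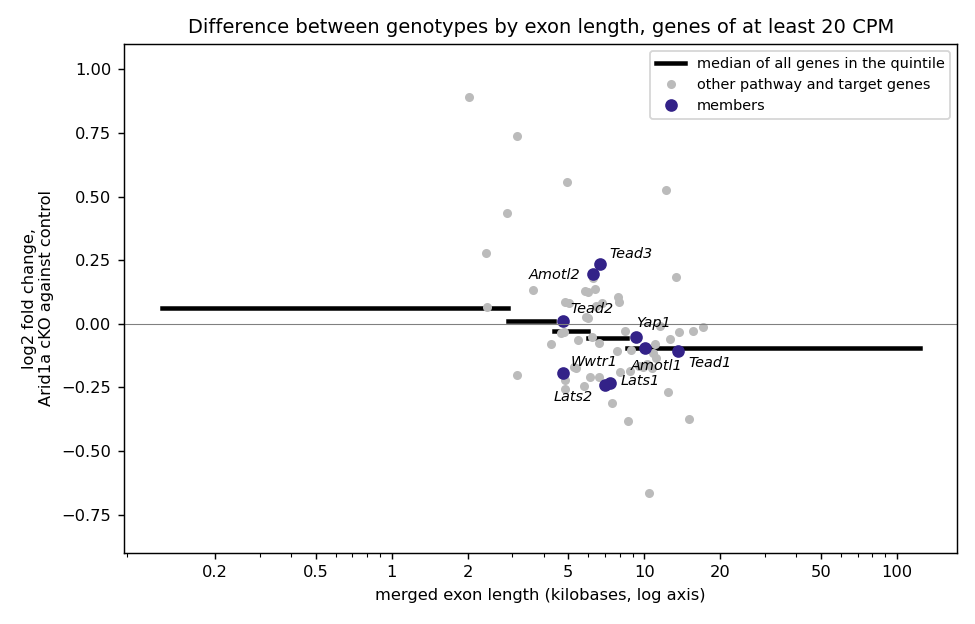
Log2 fold change of Arid1a cKO against control (vertical axis) against merged exon length in kilobases (log axis), for genes of at least 20 CPM. Black lines are medians over all genes in each quintile of exon length and fall from 0.06 to -0.10; blue points are the members and grey points the other pathway and target genes.

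Over the 6 libraries Wwtr1, Lats1 and Lats2 varied together, as did Yap1 and Tead1. Pearson's r of log2 CPM was 0.989 between Wwtr1 and Lats1, 0.941 between Wwtr1 and Lats2, 0.898 between Lats1 and Lats2 and 0.952 between Yap1 and Tead1. Between Yap1 and Wwtr1 it was 0.688. Tead3 and Amotl2 ran with each other (0.792) and against most other members, down to -0.811 between Tead1 and Amotl2. These values describe 6 points that share genotype and library and carry no test. Of 14931 genes with a mean of at least 2 CPM, those most like Yap1 were Fchsd2 (0.994), Rnf166 (0.986) and Exoc3 (0.984). For Wwtr1 they were Rybp (0.998), Chd4 (0.995) and Atxn7 (0.995), and for Lats1 B630019K06Rik, Arl5b and Wasl (0.993 to 0.992). An r above 0.9 was reached by 0.67% of genes with Yap1, 4.64% with Wwtr1 and 5.71% with Lats1.

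Beside the members, 55 further pathway genes were listed, of which 53 were tested. They are called upstream genes here, although they include the TEAD cofactor genes Vgll1 to Vgll4. One of 53 fell and 0 rose, against 3.96% of all genes tested. The median log2 fold change was -0.04, and groups did not overlap in 24 of 53 (16 lower, 8 higher), or 45.3%, against 29.1% of all genes. The latter share is not matched for exon length, with which the share lower without overlap rose, as given above. Vgll1 and Vgll2 were not in the count table.

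The gene that fell was Mob1b, which encodes a cofactor that activates the LATS kinases. Mob1b (chromosome 5, 88720855 to 88764220, plus strand) stood at 86.9, 91.5 and 88.8 CPM in control and at 61.5, 72.7 and 72.3 CPM in Arid1a cKO. The groups lay well apart, a 1.29-fold lower mean level of 68.8 ± 6.36 against 89.1 ± 2.29 CPM (SD, n = 3), a log2 difference of -0.37 ± 0.0759 (SE) (edgeR adjusted p = 0.0402). Leaving out any 1 of the control libraries, or Arid1a cKO replicate 2 or 3, ended the Mob1b call (edgeR adjusted p from 0.0612 to 0.114), with log2 fold changes of -0.34 to -0.41. It also missed the threshold, at a similar size, with the epithelium score as a covariate (-0.35, adjusted p = 0.0645), with upper quartile factors (-0.35, 0.0516) and with limma on the authors' normalized values (-0.33 to -0.36, 0.054 to 0.0572). Its merged exons span 15 kilobases, and with the length trend removed the log2 fold change was -0.26 (adjusted p = 0.0419).

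In the core kinase module 1 of 8 genes fell, where 2.46% of all genes tested did, 0 rose and 7 did not pass. The module's scaffold gene Sav1 stood at 89.4, 94.1 and 89.8 CPM in control and 77.6, 84.1 and 80.9 CPM in Arid1a cKO (log2 fold change -0.17, edgeR adjusted p = 0.128). The kinase gene Stk38l, a relative of the LATS kinases, had, on the log2 scale, a difference of -0.26 (adjusted p = 0.0644). The MST kinase genes Stk3 (log2 fold change -0.21, adjusted p = 0.273) and Stk4 (0.03, 0.826), given here after their values were seen, did not pass either. Among 12 upstream kinases 0 passed by edgeR, while DESeq2, which called 10.5% of all genes it tested, called 3 (Taok1, Map4k1 and Map4k5). Taok1, a kinase that activates MST, went from 218, 227 and 223 CPM to 172, 186 and 196 CPM (log2 fold change -0.27, adjusted p = 0.0675). Map4k5 had, on the log2 scale, a difference of -0.38 (0.121), and Map4k1, a kinase of blood cells, had 1.25 (0.0507) at low levels of 1.47 to 1.74 CPM in control and 2.8 to 5.38 CPM in Arid1a cKO. Map4k1 passed with edgeR when 1 CPM was required in every library, and both Map4k1 and Map4k5 passed with the Xist level as a covariate. Map4k1 was highest in Arid1a cKO replicate 1, the library with the most macrophage marker RNA (881 CPM against 469 to 647 CPM in the others) and erythroid marker RNA (342 against 40.2 to 136 CPM), and the part of these cells was not tested.

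None of 14 membrane scaffold genes passed by edgeR, and DESeq2 called 1 of them, Wwc1, beside 10.5% of all genes it tested. The polarity genes Dlg1 and Mpp5 each had, on the log2 scale, a difference of -0.18 (adjusted p = 0.116 and 0.128), and Wwc1, which encodes the scaffold KIBRA, had 0.56 (adjusted p = 0.127). Wwc1 stood at 17.4, 21.6 and 23.3 CPM in control and at 36.4, 23.6 and 31.5 CPM in Arid1a cKO, so that Arid1a cKO replicates 1 and 3, the libraries of that genotype with more dental epithelium marker RNA, were the high ones. The part of these markers in the difference was not tested. None of the 5 genes of the Fat and Dachsous group passed, with log2 fold changes of -0.20 for Fjx1 (adjusted p = 0.363), -0.08 for Dchs1 (0.73) and 0.14 for Dchs2 (0.829). Of 12 genes of the LIM-domain, RASSF and STRIPAK group, which tune the kinases, 0 passed by edgeR. Groups did not overlap in 7 of them, with 6 lower and 1, Strn4, higher in Arid1a cKO, where 15.3% and 13.8% of all genes tested did so. Among genes of at least 20 CPM the lower share ran from 10.7% in the shortest to 32.5% in the longest exon length quintile. The smallest p-values belonged to the STRIPAK genes Mob4 (-0.22, adjusted p = 0.0868), Strn3 (-0.21, 0.12) and Slmap (-0.19, 0.16). The TEAD cofactor gene Vgll3 had, on the log2 scale, a difference of 1.09 (adjusted p = 0.0982), from 3.44, 7.10 and 6.24 CPM to 10.6, 9.42 and 15.7 CPM, and its relative Vgll4, a repressor of YAP, had -0.17 (0.221). DESeq2 called Vgll3.

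YAP and TAZ target genes, a readout of the coactivators' activity in other settings, did not move one way. Of 22 genes in the list 21 were tested, 1 rose and 1 fell, and 19 did not pass. Over all genes tested 1.5% rose and 2.46% fell, so with 21 genes these 2 calls say little about the targets as a group. Their median log2 fold change was 0.02, and groups did not overlap in 5 of 21 (23.8%), against 29.1% of all genes tested. Lats2 and Amotl2 belong to both this list and the members, and Fjx1, Ptpn14 and Nuak2 to both this list and the upstream genes. Ankrd1 was not in the count table.

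The target gene that rose was Dock5, an activator of the small GTPase RAC (chromosome 14, 67752135 to 67933442, minus strand), with 24.5, 20.4 and 23.9 CPM in control and 34.5, 30.8 and 33.9 CPM in Arid1a cKO. This was a 1.44-fold higher mean level (log2 fold change 0.53 ± 0.0896 SE, adjusted p by edgeR 0.0244). The gene that fell was Rbms3, which encodes an RNA-binding protein (chromosome 9, 116572746 to 117872584 as deposited, minus strand), with 134, 111 and 147 CPM in control and 76.0, 84.0 and 87.6 CPM in Arid1a cKO, 1.59-fold lower (log2 fold change -0.66 ± 0.108 SE, adjusted p by edgeR 0.0222). Neither call held with every library left out in turn. Leaving out replicate 1 or replicate 3 of either genotype ended the Dock5 call (edgeR adjusted p from 0.0514 to 0.0821), and leaving out control replicate 1 or 3, or any 1 Arid1a cKO library, ended that of Rbms3 (0.0512 to 0.081). Asap1 was the target gene with the next smallest p, at a log2 fold change of -0.31 (adjusted p = 0.0574). Asap1 was called by DESeq2, and by edgeR with the Xist level as a covariate.

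The targets most often used as a readout, Ccn1 and Ccn2, and the target Igfbp3 are given here after their values were seen. Ccn1, a secreted matrix protein, stood at 12.7, 17.4 and 27.7 CPM in control and at 55.0, 18.3 and 33.6 CPM in Arid1a cKO (log2 fold change 0.89 ± 0.48 SE, adjusted p by edgeR 0.344). Its interval ran from 0.81-fold to 4.25-fold, so these libraries do not settle the direction. Ccn2, its close relative, stood at 57.5, 98.3 and 86.5 CPM in control and at 136, 67.3 and 125 CPM in Arid1a cKO (log2 fold change 0.44, adjusted p = 0.481; interval 0.781-fold to 2.34-fold). In both genes Arid1a cKO replicates 1 and 3 were high and replicate 2 lay within the control range. Igfbp3, an IGF-binding protein, was higher in all Arid1a cKO libraries, at 1594, 1109 and 1569.6 CPM against 622, 1051 and 891 CPM, and missed the threshold by edgeR (log2 fold change 0.74 ± 0.221 SE, adjusted p by edgeR 0.113), while DESeq2 called it. Dental epithelium markers were highest in Arid1a cKO replicate 1 and control replicate 3, the libraries in which Ccn1 and Amotl2 were highest within their genotype. For Amotl2 the fit with the epithelium score is given above, and for Ccn1 the part of these markers was not tested.

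**Figure D5:**
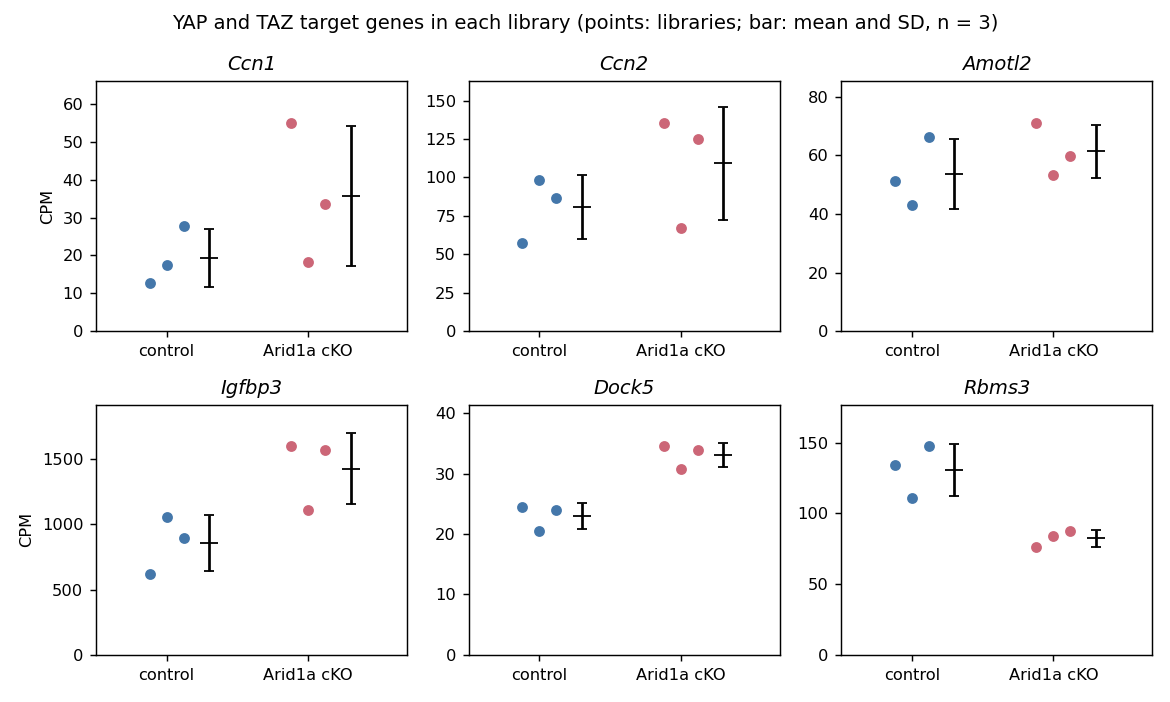
Level in CPM (vertical axes, from 0) of 6 YAP and TAZ target genes in 3 control and 3 Arid1a cKO libraries. Points are libraries and the bar is the mean with its SD. Dock5 and Rbms3 separate the genotypes in opposite directions, and Igfbp3, which missed the threshold by edgeR, is also higher in all Arid1a cKO libraries. Ccn1, Ccn2 and Amotl2 overlap, with Arid1a cKO replicate 2 of Ccn1 at 18.3 CPM beside controls of 12.7 to 27.7 CPM.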

How the data were processed

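The submitters' processing notes name STAR 2.6.1d, Partek and the build mm10. The labels give single-end reads of 75 cycles. Which annotation release, strand setting and library kit were used is not given in the sources here. The authors deposited estimated counts for 25703 genes (54% to 57.6% of a library's values lie within 0.01 of a whole number) and, for 21456 genes, normalized signal values, which were checked to equal the count plus 1 over 1 factor per library.

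Estimated counts were rounded, filtered with filterByExpr (minimum count 10) and compared with edgeR 4.0.16 (TMM, glmQLFit with robust estimation, glmQLFTest, two-sided) in R 4.3.3. Benjamini-Hochberg adjustment covered all 19613 genes. SEs follow from the fold change and its F statistic, and 95% intervals from the t distribution. The fit was tested on simulated data. Libraries held 27300932 to 37908478 counts, and the common biological coefficient of variation was 15.8%. Exon lengths and positions come from GENCODE release M21, whose starts equal the deposited ones for all 10 members. Printed ends are the deposited stop minus 1. Replicate numbers follow accession order and pair nothing.

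Members and lists were chosen with earlier results of these data known. Genes named are the members, Arid1a, every listed gene past the threshold, and the 3 of smallest p per list; those named otherwise are said to be. Alternatives used DESeq2 1.42.0 and limma 3.58.1, other normalizations and filters, covariates and each library left out; the closing section gives their effect.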

Additional observations from a re-analysis of the deposited data

How the results depend on the processing

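The number of members past the threshold was 0 in 20 of 21 alternatives and 1 (Lats1) with DESeq2, while between 0.802% (without control replicate 1) and 10.5% (DESeq2) of all genes passed. Over all genes, DESeq2 called 1905, the Xist level as a covariate gave 1181, and leaving out 1 library gave 160 to 532, against 777. Of upstream genes, 0 passed with upper quartile factors, with limma on the authors' normalized values at each of 3 pseudocounts and with the epithelium score. When 1 CPM was required in every library 2 passed, Map4k1 beside Mob1b. With the Xist level 3 passed, Map4k5 as well, and with DESeq2 6, namely Mob1b, Taok1, Map4k1, Map4k5, Wwc1 and Vgll3. Leaving out 1 library gave 0 to 1. Of target genes DESeq2 called 4 (Igfbp3, Dock5, Rbms3 and Asap1), and leaving out 1 library gave 0 to 2. For these counts the cause was not tested. Wwtr1, Tead3, Lats1, Lats2, Amotl1 and Amotl2 kept their sign in all 21 alternatives. Signs of log2 fold changes turned for Yap1 (0.0271) and Tead1 (0.00129) with the length trend removed. With 1 library left out Tead2 ran from -0.0206 to 0.0791, below 0 without control or Arid1a cKO replicate 3, and Tead4 from -0.0118 to 0.285, below 0 without Arid1a cKO replicate 1. The genotypes differed by 0.00856 in the log2 ratio of Lats1 to Lats2, and by -0.0475 to 0.0489 with 1 library left out, below 0 without control or Arid1a cKO replicate 2. No paired analysis was possible because the sample titles of the genotypes share only 1 number, and a block needs more. The extraction protocol mentions 3 pairs but does not say which samples form a pair. If control and Arid1a cKO samples were paired, the tests here leave that out. With 3 libraries a genotype, the printed 95% intervals set what could be seen.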
